A study of Ovis aries with 14 samples.

Results

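A set of 10 genes picked for clear separation between testosterone and control libraries in the fetal sheep ovary was followed into the adult ovary. The genes are EFHB, FIBIN, SPATA46, PADI1, EMILIN3 and ADGRD1, which were higher in testosterone fetuses, and PLCXD3, CBLN2, PNPLA1 and CDH19, which were lower. They are 10 of the 16513 genes listed in the fetal table and of the 17323 listed in the series as a whole. They were selected on their normalized counts in the fetal libraries, so their fetal levels and fold changes are a description with no test. There was no numeric limit behind the choice: by limma p in the fetal table the 10 genes ranked between place 1 and place 21, and other genes stood between them.

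The fetal testosterone group was 3 ovaries at gestation day 90 from wild type Suffolk sheep whose mothers were injected with testosterone propionate in cottonseed oil 2 times a week over days 30 to 90 of gestation, and the fetal control group was 3 ovaries of the same breed, genotype and age. The adult testosterone group was 4 ovaries at year 2 after the same prenatal exposure, and the adult control group was 4 ovaries at year 2. The labels give the dose both as 100 mg and as 1.2 mg/kg without relating these figures, and they do not say whether controls received the oil. RNA came from whole frozen ovaries, so each value is a mixture of all ovarian cell types, and fewer cells of a type cannot be told apart from less RNA per cell. Fetal ovaries were collected at the end of the exposure, whereas adult ovaries were collected long after it, and nothing in the labels gives the cycle stage of the adults or relates the samples to mothers or litters. The p-values therefore cover the spread among these ovaries and no more.

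EFHB encodes a calcium-binding EF-hand protein found inside the microtubule doublets of motile cilia. FIBIN is a secreted protein named for its part in fin bud initiation in zebrafish. SPATA46 is a sperm head protein in the mouse, and PADI1 is one of the peptidylarginine deiminases, enzymes that convert arginine in proteins to citrulline and that act on keratins in the epidermis. EMILIN3 belongs to a family of extracellular glycoproteins associated with elastic fibers, and ADGRD1 is an adhesion G protein-coupled receptor that signals through Gs. PLCXD3 carries the catalytic X domain of phosphoinositide-specific phospholipase C. CBLN2 is a secreted synapse organizer that bridges neurexins and delta-type glutamate receptors, PNPLA1 makes the acylceramides of the skin barrier, and CDH19 is a type II cadherin of Schwann cell precursors and other peripheral glia. Sheep exposed to testosterone before birth are used as a model of polycystic ovary syndrome.

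The unit is the normalized count, the number of reads of a gene divided by a scale factor for its library. Libraries held 22.6 to 33.4 M reads. Germ cell and somatic markers of the ovary were present in the fetal libraries: DDX4, a germ cell helicase, averaged 3667 ± 879 in testosterone and 4891 ± 1507 in control fetuses (SD, n = 3 each), and 14 of 20 granulosa markers were measured. In adults 15 of 20 granulosa markers were measured.

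In the fetal ovary, EFHB was 3.58-fold and FIBIN 3.15-fold higher on average after testosterone. EFHB had 459, 423 and 373 normalized counts in the testosterone libraries 1, 2 and 3, against 126, 115 and 109 in controls 1, 2 and 3. The lowest testosterone library was 2.96-fold above the highest control. FIBIN had 254, 245 and 346 normalized counts in testosterone fetuses, against 97.2, 83.2 and 87.9 in control fetuses, and its closest libraries were 2.52-fold apart. The log2 differences were 1.83 (SE 0.16) for EFHB and 1.63 (SE 0.20) for FIBIN.

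SPATA46 and PADI1 had the largest fold differences of the 10 genes and the fewest reads. SPATA46 was covered by 30 to 38 reads in each testosterone library and by 2 reads in each control library, or 34.3, 30.4 and 35.9 normalized counts in testosterone fetuses against 2.14, 1.96 and 2.00 in control fetuses. Over each group the reads came to 103 in testosterone and 6 in control fetuses, a depth-adjusted ratio of 16.6 with a 95% interval of 7.36 to 46.2 that covers counting error only. PADI1 had 45.1, 91.2 and 43.4 normalized counts in testosterone fetuses against 5.34, 5.87 and 4.997 in control fetuses. Its summed reads were 182 in testosterone and 16 in control fetuses, a ratio of 10.97 (95% counting interval 6.58 to 19.6). Testosterone library 2 held about as much PADI1 as the other 2 testosterone libraries together. Both genes reached the minimum mean of 10 only through the testosterone libraries, so their presence among the genes tested already required a difference. The counting intervals pool the reads of each group and are no test of that difference.

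EMILIN3 was 2.14-fold and ADGRD1 2.03-fold higher on average in testosterone fetuses. EMILIN3 had 1045, 1257 and 1099 normalized counts in testosterone fetuses, against 455, 637 and 499.7 in control fetuses. ADGRD1 had 974, 866 and 914 normalized counts in testosterone fetuses, against 425, 536 and 395 in control fetuses. The groups did not overlap for either gene, and the closest libraries were 1.64-fold apart for EMILIN3 and 1.61-fold apart for ADGRD1.

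**Figure D1:**
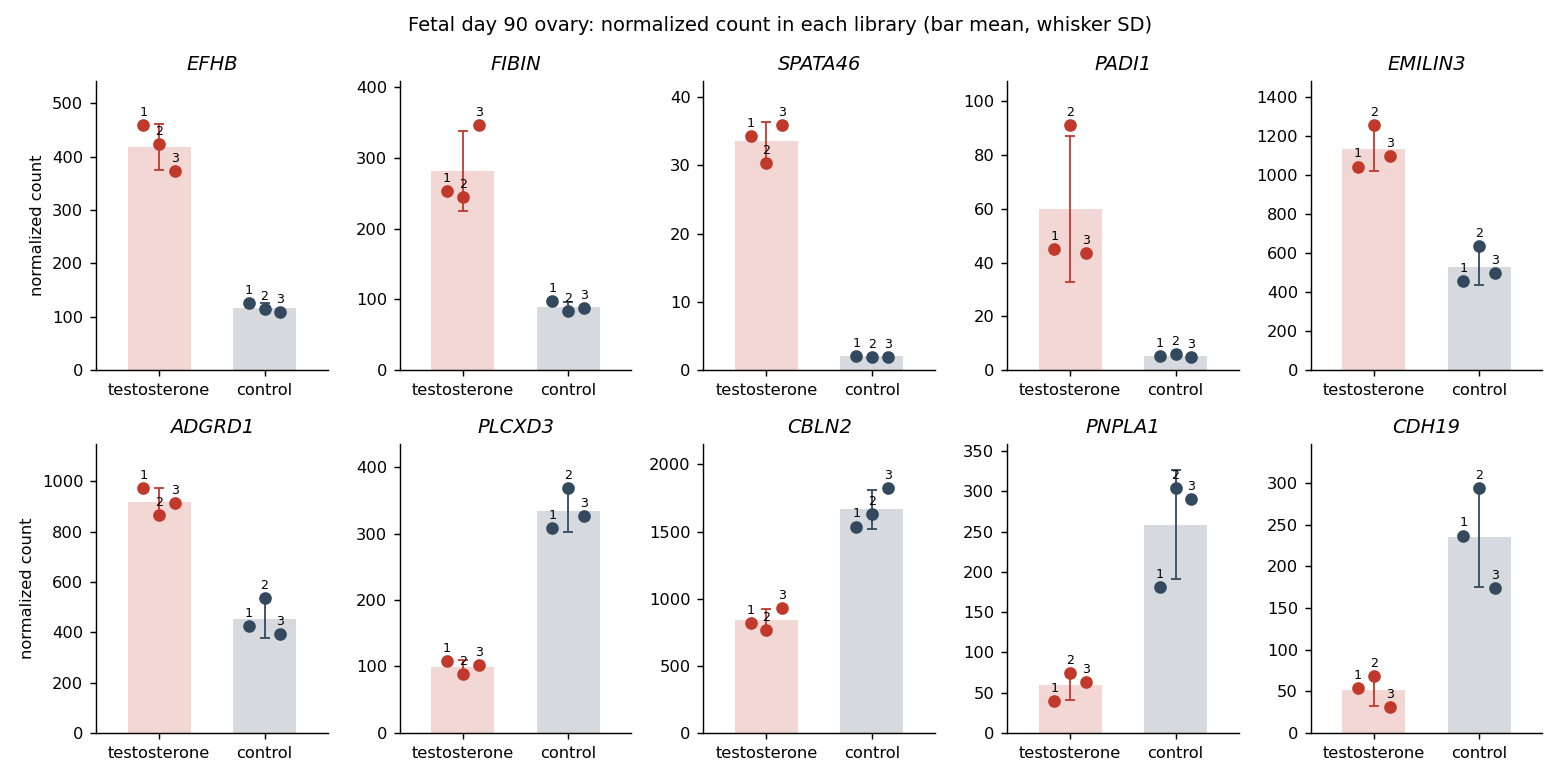
Normalized count of each of the 10 genes in every fetal library. Points are libraries with their sample number, bars are group means and whiskers are SDs, with testosterone left of control. In all 10 panels the groups are separated, which is what chose the genes; SPATA46 and PADI1 sit at 2 to 6 in controls.

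Of the 4 genes lower in testosterone fetuses, PLCXD3 and CBLN2 had the smaller standard errors on the log2 scale. PLCXD3 had 108, 88.1 and 102 normalized counts in testosterone fetuses, against 308, 369 and 326 in control fetuses, a log2 difference of -1.74 (SE 0.17). CBLN2 had 818, 764 and 933 normalized counts in testosterone fetuses against 1538, 1632 and 1826 in control fetuses. The highest CBLN2 testosterone library lay 1.65-fold below the lowest control, and the log2 difference was -0.99 (SE 0.12). PNPLA1 had 39.2, 75.0 and 63.3 normalized counts in testosterone fetuses, against 181, 304 and 291 in control fetuses. CDH19 had 53.9, 68.9 and 31.2 normalized counts in testosterone fetuses, against 237, 294 and 174 in control fetuses. The log2 differences were -2.12 (SE 0.31) for PNPLA1 and -2.21 (SE 0.33) for CDH19.

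All 10 genes had no overlap between the fetal groups, 6 of them higher and 4 lower. Of the 16513 genes of the fetal table, 16.3% had groups without overlap, 8.88% with testosterone higher and 7.46% with testosterone lower. The rule used this same separation, so nothing is read from the count.

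Relatives of these genes were examined in the same fetal libraries. In the type II cadherin list, CDH7 was lower alongside CDH19, with 1888 ± 183 normalized counts in testosterone and 2911 ± 153 in control fetuses (SD, n = 3 each; log2 difference -0.63, DESeq2 adjusted p = 3.26e-05, limma adjusted p = 0.136). It was the only one of 12 measured relatives to pass, with DESeq2 alone, and the list's median log2 difference was -0.05, against -0.02 over all genes. CDH7 is also the gene next to CDH19 in the RefSeq gene order (assembly ARS-UI_Ramb_v3.0), and DSEL, on the other side, had a log2 difference of -0.43 that did not pass (limma adjusted p = 0.454, DESeq2 adjusted p = 0.252). Of all fetal genes, 1.19% passed as higher and 0.564% as lower with DESeq2, and 0.0182% passed in either direction with limma.

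Among 23 other adhesion G protein-coupled receptors measured, ADGRB3, a brain receptor that binds C1q-like proteins, rose with DESeq2. It averaged 152 ± 5.67 normalized counts in testosterone and 77.7 ± 1.08 in control fetuses (SD, n = 3 each; log2 difference 0.96, DESeq2 adjusted p = 0.00622, limma adjusted p = 0.196). The list split into 9 positive and 14 negative differences with a median of -0.05.

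PNPLA1 acts in the epidermis with enzymes and carriers of barrier lipids, and 9 of 16 markers of keratinocytes and that barrier were measured. ABCA12, which carries lipids into lamellar granules, fell with DESeq2, with 77.2 ± 43.7 normalized counts in testosterone and 233 ± 22.9 in control fetuses (SD, n = 3 each; log2 difference -1.72, DESeq2 adjusted p = 0.00324, limma adjusted p = 0.237). CERS3, which makes the very long chain ceramides, had a log2 difference of -0.43, and ABHD5, a cofactor of PNPLA1, had -0.42, neither of which passed. The list had 3 positive and 6 negative differences and a median of -0.12. Its summed level ran from 2076 to 2370 in testosterone and from 2486 to 2824 in control fetuses. TP63, a defining keratinocyte regulator, averaged 345 ± 90.2 in testosterone and 370.3 ± 63.6 in control fetuses. ABCA12, CERS3 and TP63 were chosen for mention after their values were seen.

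In the remaining families no relative passed with limma or DESeq2. Of the deiminases, PADI6, the oocyte member, averaged 14604 ± 5511 in testosterone and 17646 ± 7996 in control fetuses, and PADI2 averaged 178 ± 84.4 in testosterone and 179 ± 59.2 in control fetuses. PADI2 stands beside PADI1 in the RefSeq order. EMILIN2 had a log2 difference of -0.55 and EMILIN1 one of 0.09, neither past the threshold, against 1.10 for EMILIN3. The 7 measured cerebellins and their partners had a median log2 difference of 0.01, with NRXN2, a presynaptic receptor of cerebellins, at 0.16 and CBLN3 at -0.19. Of 5 other genes of the PNPLA list, PNPLA6, a lysophospholipase, was at -0.08. Of 10 other SPATA genes measured, SPATA6 was at -0.30 and SPATA24 at 0.14. No other PLCXD gene is listed by name in the fetal table.

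Of 10 measured genes linked to androgen action, 3 log2 differences were positive and 7 negative (median -0.15), and none passed with limma or DESeq2. The groups did not overlap for 2 genes as higher and 4 as lower, where 8.88% and 7.46% of all genes had such groups. The genes of smallest p were NCOA3 and KLK4. NCOA3, a nuclear receptor coactivator, had a log2 difference of -0.28 (limma adjusted p = 0.395, DESeq2 adjusted p = 0.204). KLK4, a protease under androgen control in the prostate, was at 0.60 (limma adjusted p = 0.426, DESeq2 adjusted p = 0.256).

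Other measured neighbours in the RefSeq order did not pass with limma or DESeq2. C6, a complement gene next to PLCXD3, averaged 45.2 ± 21.7 in testosterone and 110 ± 29.7 in control fetuses (log2 difference -1.33, limma adjusted p = 0.320, DESeq2 adjusted p = 0.0928), and OXCT1 on the other side was at -0.24. KCNH8 and RAB5A, on either side of EFHB, had log2 differences of 0.85 and 0.16, neither past the threshold. The measured neighbours of EMILIN3, ADGRD1 and PNPLA1 lay between -0.09 and 0.02.

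Markers of other cells moved with the fetal groups in part. All 14 measured smooth muscle markers had positive log2 differences (median 0.50, 3 passing as higher with DESeq2, where 1.19% of all genes did), and their summed level ran from 91425 to 122750 in testosterone and from 68760 to 87670 in control fetuses. Germ cell markers had 21 negative differences of 22 (median -0.39, none passing), and summed to between 20849 and 30725 in testosterone and between 28598 and 38216 in control fetuses. Granulosa markers had 9 positive and 5 negative differences (median 0.35, none passing with limma or DESeq2) and summed to between 34349 and 40580 in testosterone and between 29669 and 32913 in control fetuses. Surface epithelium markers had 5 positive and 6 negative differences (median -0.02, as over all genes), and KRT8, 1 of 11, passed as higher with DESeq2. They summed to between 12912 and 14320 in testosterone and between 11444 and 12874 in control fetuses. Stroma markers had 6 positive and 5 negative differences with a median of 0.004. Of the 11, DCN and PDGFRA passed as higher with DESeq2, and the sums overlapped. Of 12 theca markers CYP11A1 and CYP17A1 passed as lower with DESeq2, where 0.564% of all genes did. Luteal markers, which share CYP11A1, summed to between 5195 and 5451 in testosterone and between 5508 and 7263 in control fetuses. The endothelial, macrophage, neuron and mesonephros lists had no gene past the threshold with either tool. The part of these shifts in the differences of the 10 genes was not tested.

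CDH19 was compared with the glial list because it marks peripheral glia. Of 15 other glial markers 14 were measured in the fetus, 7 with positive and 7 with negative differences, and the median log2 difference was 0.002. SOX10, the defining glial regulator, averaged 141 ± 3.37 in testosterone and 117 ± 29.1 in control fetuses. None of the 14 passed with limma or DESeq2, while NGFR, a neurotrophin receptor singled out after its value was seen, was at -0.57 (DESeq2 adjusted p = 0.0542). The summed glial level ran from 4164 to 4858 in testosterone and from 4306 to 5204 in control fetuses, so those ranges overlapped while those of CDH19 did not.

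EFHB was compared in the same way with 32 motile cilium markers, of which 23 were measured in the fetus. Their log2 differences were positive for 12 and negative for 11, with a median of 0.02 against 1.83 for EFHB, and none passed with limma or DESeq2. Their summed level ran from 5968 to 7054 in testosterone and from 6869 to 7695 in control fetuses. In adults 1 marker of this list, CFAP58, passed with DESeq2 in the second table and is named for that after its value was seen. It averaged 61.0 ± 14.2 in testosterone and 5.89 ± 2.37 in control adults there (SD, n = 3 each; log2 difference 3.36, DESeq2 adjusted p = 0.00812, limma adjusted p = 0.9998). It passed neither in the first table (DESeq2 adjusted p = 0.9998) nor over the joined libraries (DESeq2 adjusted p = 0.374), and in the fetus its log2 difference was -0.46 (limma adjusted p = 0.714).

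In the adult ovary 8 of the 10 genes could be followed. SPATA46 and PADI1 are listed in neither adult table and were not measured there. The adult tables list only genes with a mean near 10 or above, the lowest means being 9.80 and 9.28. The first adult table holds testosterone 4, 5 and 6 and controls 4, 5 and 6, and the second holds testosterone 5, 6 and 7 and controls 4, 6 and 7. They share 4 libraries and are not independent. The values per library below come from all 8 adult libraries put on 1 scale through their reads.

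Over the joined libraries EFHB was the gene whose adult difference lay closest to the fetal one, while in the second adult table CBLN2 lay closer (-1.17 in adults, -0.99 in fetuses). EFHB had 347, 98.4, 88.6 and 98.7 normalized counts in testosterone adults 4, 5, 6 and 7, against 124, 38.0, 21.05 and 23.1 in control adults 4, 5, 6 and 7. Control 4 exceeded all testosterone libraries except testosterone 4, so the groups overlapped through 1 library. The log2 difference over the 8 libraries was 1.72 (SE 0.67, 95% interval 0.21 to 3.24), with an unadjusted limma p of 0.0297 and a limma adjusted p of 0.9999. The EFHB difference was 1.58 (interval -0.32 to 3.48) in the first adult table and 1.25 (interval -0.51 to 3.01) in the second. Leaving out 1 of the 8 libraries gave values from 1.26, without testosterone 4, to 2.27, without control 4.

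PLCXD3 leaned the other way in adults. It had 83.9, 72.4, 31.7 and 15.9 normalized counts in testosterone adults 4 to 7, against 13.0, 31.9, 37.2 and 6.30 in control adults 4 to 7. Testosterone 4 and 5 were above all controls and testosterone 6 and 7 lay among them. PLCXD3 had few reads in control 4 (11 reads) and control 7 (6 reads). The log2 difference was 1.19 (95% interval -0.47 to 2.85; limma adjusted p = 0.9999), so that an absence of difference lay inside the interval and the fetal value of -1.74 lay outside it. In the 2 adult tables the differences were 1.15 and 1.13, with intervals from -0.35 to 2.65 and from -0.99 to 3.24.

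FIBIN groups overlapped widely in adults. It had 437, 1771, 1608 and 749.7 normalized counts in testosterone adults 4 to 7, against 2422, 1251, 853 and 785 in control adults 4 to 7. Its log2 difference was -0.28 (interval -1.45 to 0.89), which leaves the fetal value of 1.63 outside. The same held in the first table (-0.36, interval -1.85 to 1.13) and the second (0.14, interval -1.12 to 1.39).

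ADGRD1 and EMILIN3, both higher in testosterone fetuses, were not separated in adults. ADGRD1 had 321, 959.8, 521 and 478 normalized counts in testosterone adults 4 to 7, against 1345, 410.2, 444 and 309.7 in control adults 4 to 7 (log2 difference 0.004, interval -1.11 to 1.12). Control 4 was 3.03-fold above the next control. EMILIN3 had 52.2, 128, 134 and 11.3 normalized counts in testosterone adults 4 to 7, against 76.8, 130.6, 29.2 and 138 in control adults 4 to 7 (log2 difference -0.47, interval -2.36 to 1.41). Each group held both high and low EMILIN3 libraries.

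**Figure D2:**
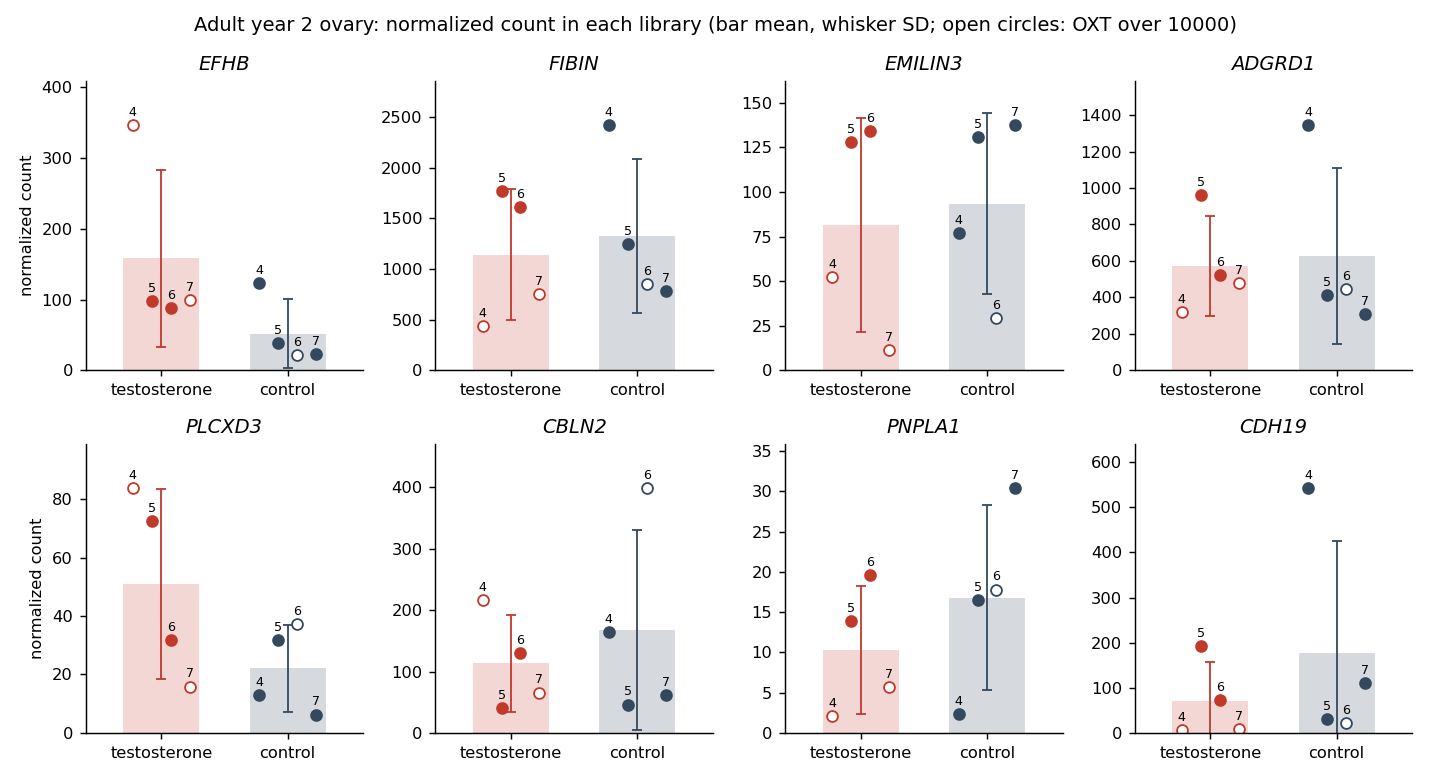
Normalized count of the 8 genes measured in adults, in each of the 8 adult libraries on a joined scale. Points are libraries with their sample number, bars are group means and whiskers are SDs cut off at 0, with testosterone left of control; open circles mark the 3 libraries with OXT above 10000. No panel shows groups without overlap.

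CBLN2, PNPLA1 and CDH19 had negative estimates over the 8 adult libraries, as in fetuses, but each interval spanned zero. CBLN2 had 217, 39.9, 130.5 and 65.8 normalized counts in testosterone adults 4 to 7, against 164, 46.3, 399 and 61.9 in control adults 4 to 7 (log2 difference -0.33, interval -2.06 to 1.40). PNPLA1 had few reads, with 2.05, 13.9, 19.6 and 5.67 normalized counts in testosterone adults 4 to 7 against 2.36, 16.4, 17.8 and 30.4 in control adults 4 to 7 (log2 difference -0.62, interval -2.66 to 1.42). Both testosterone 4 and control 4 had 2 reads of PNPLA1. CDH19 had 7.16, 192, 73.7 and 9.07 normalized counts in testosterone adults 4 to 7, against 543, 29.8, 21.9 and 111 in control adults 4 to 7 (log2 difference -1.30, interval -4.21 to 1.62). Control 4 and testosterone 5 were the 2 highest CDH19 libraries, 1 in each group.

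None of the 8 genes passed in adults with limma, in the first table, in the second, or over the 8 libraries. The limma adjusted p-values of the 8 genes all lay between 0.9998 and 0.9999. Over all genes limma called 0.00631% in the first table, 0.00623% in the second and 0.0127% over the joined libraries. DESeq2 called none of the 8 either, against 0.0257%, 0.0318% and 0.0453% of all genes, and neither did edgeR, against 0%, 0% and 0.00635%. At an unadjusted limma p under 0.05 there were 0 of the 8 in each table, against 0.637% and 0.486% of all genes, and 1, EFHB, over the joined libraries, against 0.806%. The groups did not overlap for 0 of the 8 genes in any of these sets, against 3.57%, 2.61% and 0.704% of all genes. At this sample size such a result does not show that the genes were alike in both groups: the joined 95% intervals were between 2.24 and 5.83 wide on the log2 scale.

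The adult estimates can be set beside the fetal ones gene by gene. In each adult table and over the joined libraries, 5 of the 8 genes had the sign they had in fetuses, though not the same 5, against 43.96%, 44.4% and 45.66% of all genes measured at both ages. EFHB, CBLN2 and CDH19 were among the 5 each time. For 6 of the 8 genes the adult interval held the fetal difference, and PLCXD3 and FIBIN were the exceptions in both tables and over the joined libraries. The fetal differences were taken here as fixed values, although the choice of genes may have enlarged them. Set against the fetal interval instead, the FIBIN interval of the second table overlapped it, while the other intervals of FIBIN and those of PLCXD3 did not. The fetal intervals come from the values used to choose the genes, so neither comparison is a test of a change between ages. No share of all genes was computed for the count of 6, so it is not read as agreement between ages. The median size of the log2 difference was 0.55 for the 8 genes over the joined libraries, against 0.17 for all genes. It was 0.47 and 0.64 in the 2 adult tables, against 0.21 and 0.22 for all genes. For the same 8 genes in the fetus it was 1.69, a value fixed by the way they were chosen. The joined SEs of the 8 genes ran from 0.49 for ADGRD1 to 1.29 for CDH19. Genes of like spread were not compared, so the larger adult size is not read as a testosterone difference.

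**Figure D3:**
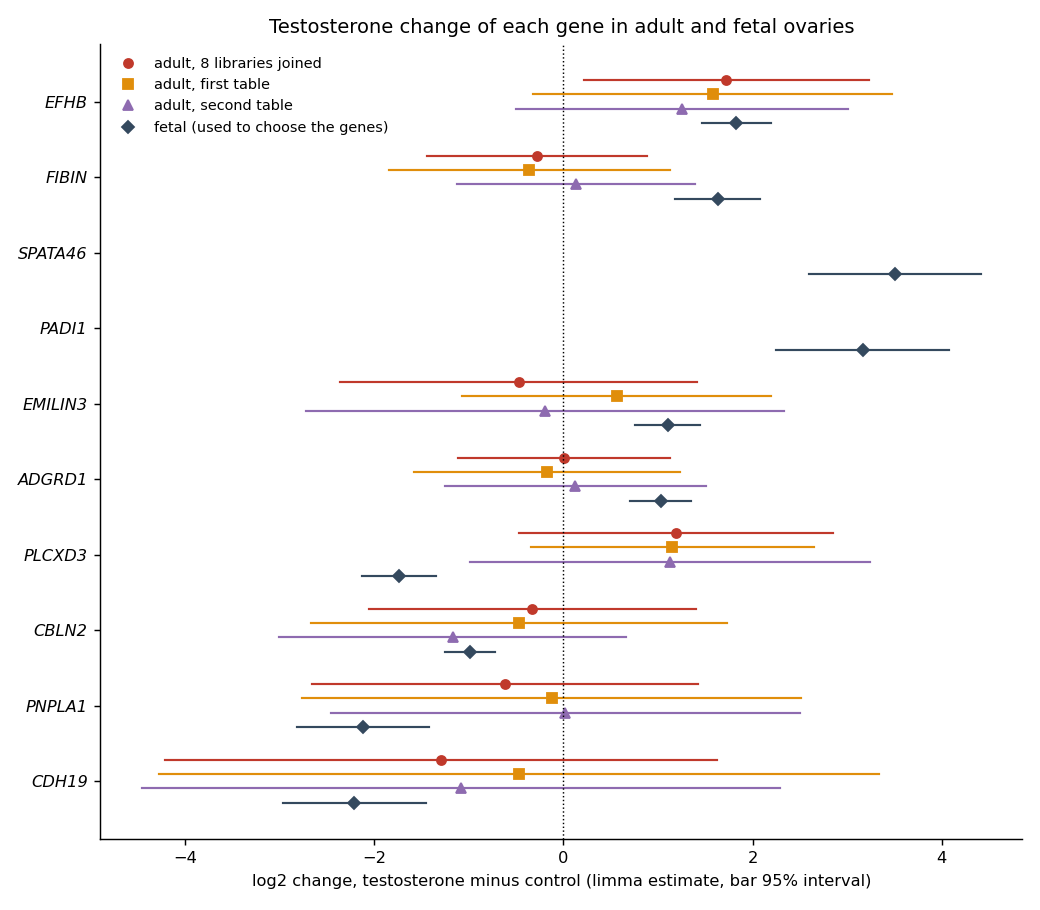
Log2 difference, testosterone minus control, of each gene over the joined adult libraries, in the 2 adult tables and in the fetus, with 95% intervals. The adult intervals are several times wider than the fetal ones; for PLCXD3 and FIBIN the fetal value lies outside the adult intervals, and SPATA46 and PADI1 have a fetal value only.

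Across 42 adult settings, the 2 tables and the joined libraries each under their alternatives, between 2 and 6 of the 8 genes had the fetal sign and none was called. EFHB had it in every one of these settings and PLCXD3 had the opposite sign in every one. For the other 6 genes the sign changed with the table, the tool or the library left out. The settings reuse the same adult libraries, so a constant sign across them is not repeated evidence. No share of all genes was computed for it.

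Adult libraries spread widely within both groups. The highest adult library exceeded the lowest 75.9-fold for CDH19, 16.5-fold for EFHB, 14.9-fold for PNPLA1, 13.3-fold for PLCXD3, 12.1-fold for EMILIN3, 10-fold for CBLN2, 5.55-fold for FIBIN and 4.34-fold for ADGRD1. The corpus luteum, which forms in each cycle, makes oxytocin in sheep. OXT stood at 110586 and 61705 normalized counts in testosterone 4 and 7 and at 94884 in control 6, and between 22.3 and 80.2 in the other 5 adult libraries. The 3 libraries with high OXT were the 3 lowest for EMILIN3, and testosterone 4 and 7 were the lowest for CDH19 and FIBIN. Control 6 and testosterone 4 were the highest for CBLN2, while testosterone 7, at 65.8, lay below control 4 and testosterone 6. With a luteal marker score as a covariate the differences over the joined libraries were 1.70 for EFHB, 1.13 for PLCXD3, -0.99 for CDH19 and -0.25 for EMILIN3.

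CDH19 was highest in the adult ovary with the highest glial markers. Control 4, the highest CDH19 library, also had the highest summed level of glial markers (8606), and testosterone 5 (3542) and testosterone 6 (2672) came next. The remaining 5 adult libraries held between 1832 and 2252, with the lowest sum in control 7, where CDH19 stood at 111 normalized counts. The mean log2 level of the 14 markers, relative to the mean of all adult libraries, was 2.16 in control 4. It was lowest in testosterone 4 (-1.05) and testosterone 7 (-0.87), the 2 libraries lowest for CDH19. SOX10 ranged from 17.0 to 211 in testosterone and from 21.05 to 667 in control adults. In the fetus the same comparison had a different shape: control 2 had the most CDH19 and the lowest mean glial level (-0.24). The adult pattern was not particular to glia. MYH11, a smooth muscle marker, was also highest in control 4, at 278273 normalized counts. It lay between 21146 and 21628 in testosterone 4, testosterone 7 and control 6, which had the least CDH19. In the other adult libraries MYH11 lay between 71597 and 111583. Which cells the CDH19 reads came from was not tested.

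**Figure D4:**
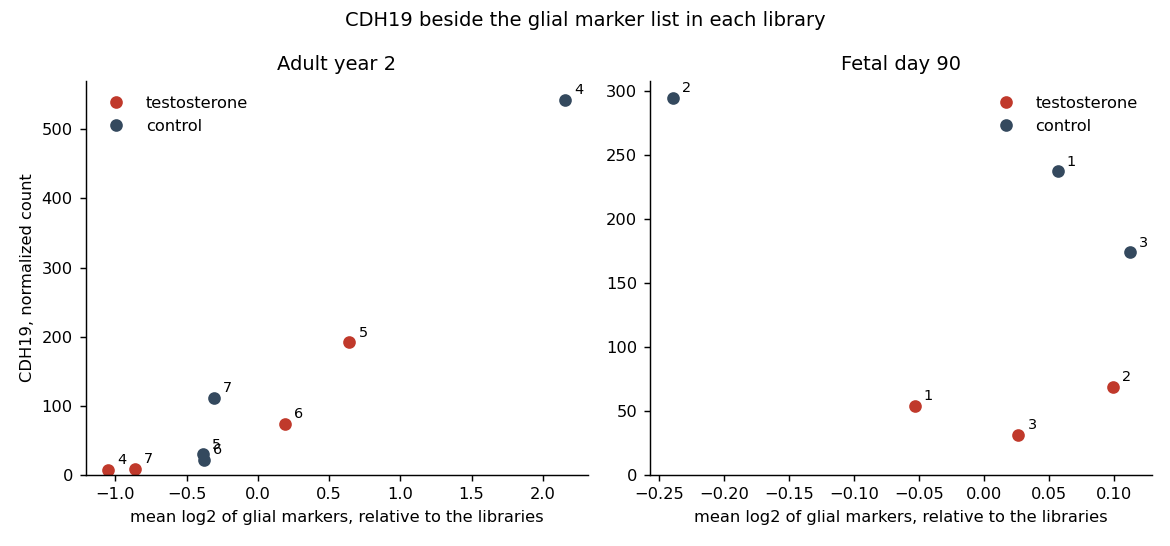
CDH19 normalized count of each library against the mean log2 level of 14 glial markers other than CDH19, relative to the libraries of the same age, in adults (left) and fetuses (right). Numbers are sample numbers. Control 4 is highest on both axes among adults, whereas the fetal groups differ in CDH19 within a narrow range of the glial level.

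Some of the 8 genes varied together over the adult libraries, given here as description with Pearson r over 8 libraries; all genes of a library share its depth and cell mixture. FIBIN had r = 0.84 with both CDH19 and ADGRD1, CDH19 had r = 0.74 with ADGRD1, and EFHB had r = -0.82 with PNPLA1. In control 4, CDH19, FIBIN and ADGRD1 were each at their highest. The named genes of most similar pattern were DDIT4L and CBX7 for CDH19 (r = 0.99 and 0.98), MCOLN2 and HIVEP3 for EFHB (0.92 and 0.91), and TMEM170B and CNOT6 for PLCXD3 (0.97 for both). For ADGRD1 they were SMAD9 and LRRK2 (0.98 and 0.97), for FIBIN UBQLN2 and KRT3 (0.98 and 0.96), and for EMILIN3 DNAJC9 and EXOSC8 (0.99 and 0.98). For PNPLA1 they were CCDC158 and GLYR1 (0.98 and 0.96), and for CBLN2 YIPF2 and HIF1AN (0.94 for both). These genes were picked as the highest of all, so no test was made of r.

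The fetal relatives and barrier gene that passed with DESeq2 were also looked up in adults. CDH7 averaged 48.8 ± 19.4 in testosterone and 137 ± 75.9 in control adults (SD, n = 4 each; log2 difference -1.28, limma adjusted p = 0.9999), a negative estimate with overlapping groups. ADGRB3 averaged 153 ± 95.2 in testosterone and 101 ± 31.9 in control adults (log2 difference 0.43, limma adjusted p = 0.9999). ABCA12 is listed in the second adult table only, with 13.9 ± 10.8 in testosterone and 12.9 ± 19.9 in control adults (SD, n = 3 each; log2 difference 0.84, limma adjusted p = 0.9998), an estimate opposite in sign to the fetal one. Over the joined libraries no gene of the 9 family lists passed with limma or DESeq2.

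The level of the 8 genes was compared between ages as CPM, the reads of a gene per 1 M recovered reads of its library, among controls first. FIBIN was the only one of the 8 with every adult control above every fetal control, with 47.0 ± 19.3 in adult and 3.47 ± 0.27 in fetal controls (SD, n = 4 and 3), a 13.5-fold difference. PLCXD3 had 0.8285 ± 0.581 in adult and 13.0 ± 1.48 in fetal controls, and was 15.7-fold higher in the fetus. PNPLA1, with 0.669 ± 0.495 in adult and 10.04 ± 2.67 in fetal controls, was 15.0-fold higher in the fetus. CBLN2 was 10.7-fold higher in fetal controls (6.04 ± 5.95 in adult, 64.6 ± 4.56 in fetal), EMILIN3 5.72-fold (3.61 ± 2.28 in adult, 20.6 ± 4.12 in fetal) and EFHB 2.59-fold (1.75 ± 1.36 in adult, 4.54 ± 0.40 in fetal). For these 6 genes no adult control overlapped a fetal control. The share of all genes separated in this way between ages was not computed, so the count is not read as particular to these genes. CDH19 (5.77 ± 7.28 in adult, 9.17 ± 2.58 in fetal controls) and ADGRD1 (21.6 ± 12.7 in adult, 17.6 ± 3.35 in fetal controls) overlapped between ages.

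**Figure D5:**
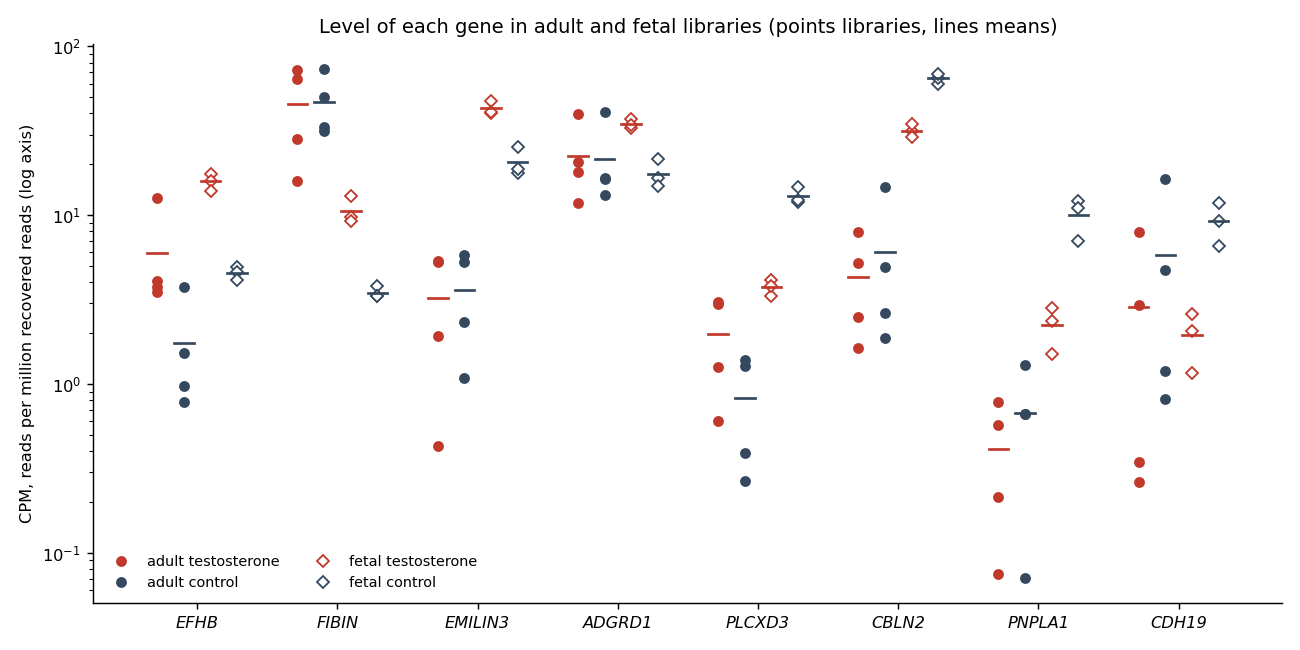
CPM of each gene in adult testosterone, adult control, fetal testosterone and fetal control libraries, on a log axis. Points are libraries and lines are group means. FIBIN is higher in adults, PLCXD3, CBLN2, PNPLA1, EMILIN3 and EFHB are higher in fetuses, and CDH19 and ADGRD1 overlap between ages.

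Among testosterone libraries the same 6 genes were separated between ages, in the same directions, again without a share of all genes to set beside the count. The age difference of FIBIN was 4.25-fold among testosterone libraries, and that of PLCXD3, higher in the fetus, was 1.90-fold. EMILIN3 was 13.3-fold higher in fetal than in adult testosterone libraries. Fetal and adult tables were normalized separately by the authors and no label says whether the ages were sequenced together, so age and sequencing run cannot be told apart and no test was made.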

How the data were processed

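Per the labels' protocols, RNA of whole ovaries was read in paired-end runs. DESeq2 is named in the series text, and Trimmomatic 0.36 and STAR 2.5.2b in the submitters' processing notes. Read counting, genome build and annotation were not given in the sources used here. Deposited by the authors were, per gene, a signal for each library (a DESeq2 normalized count) and columns of fold changes on the log2 scale and of p-values. All values came out as whole reads within 0.01 after division by 1 step per library, and these recovered reads were used where counts are named. Depth ran from 22.6 to 33.4 M reads (control 6 was taken from the second adult table, with 33.4 M, not from the first, with 26.4 M).

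Each table was fitted with limma-trend (limma 3.58.1, R 4.3.3) after a log2 transform with a pseudocount of 1. Genes averaging 10 or more were kept, and p-values were Benjamini-Hochberg adjusted over all genes within each table, two-sided, at 0.05. DESeq2 1.42.0 and edgeR 4.0.16 were run on recovered reads. The 8 adult libraries were joined with median-ratio size factors. All fits were also run on simulated data, whose outcome is not reported here and was not used to read the adult results. Adjusted p-values and calls given for other genes come from these fits.

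The 10 genes, the gene lists and the tests were chosen with earlier results of these data known. Named besides them are relatives that passed, otherwise up to 2 of smallest limma p per family, and the 2 genes of highest Pearson r with each. Same-numbered samples were not treated as pairs in the main fits. Same-numbered fetal libraries had correlations of 0.13, 0.0093 and 0.403, and differently numbered ones ran from -0.343 to 0.272. So few values cannot show whether the numbers pair the samples. The labels list 4 adult controls, the series text 3. RefSeq served for gene order only, and sequences were not used here. Some genes of the lists are not reported here.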

Additional observations from a re-analysis of the deposited data

Results flagged for a closer look

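For each of the 8 genes measured in adults, both adult groups of 4 libraries were examined for a single library far from the other 3, which makes 16 groups. For independent, normally distributed values chance marks about 1 in 20 such groups, and 3 of the 16 were marked. The values were normalized counts without a log2 transform and the genes share libraries, so this rate is only a rough guide. Control 4 was the marked control library for both EFHB and ADGRD1. EFHB in testosterone adults had 347 normalized counts in testosterone 4, against 88.6 to 98.7 in the other testosterone libraries. EFHB in control adults had 124 normalized counts in control 4, against 21.05 to 38.0 in the other controls. ADGRD1 in control adults had 1345 normalized counts in control 4, against 309.7 to 444 in the other controls. Groups of 3 fetal libraries are too small for this comparison.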

How the results depend on the processing

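Because the 10 genes were chosen for fetal groups without overlap, the sign of their fetal differences cannot turn when a library is left out. SPATA46 ran from 2.45 with a pseudocount of 5 to 4.05 with DESeq2, and PADI1 was 2.57 with a pseudocount of 5. Over all genes, the 3 fetal limma calls became 262 with DESeq2, 10 with the sample number as a replicate block, and 0 to 13 when 1 library was left out. The single call of the first adult table became 4 with DESeq2, 0 with edgeR, 0 with the block, 0 to 0 when 1 library was left out, and 2 over the 8 joined libraries. That of the second became 5 with DESeq2, 0 with edgeR, 0 with the block, 0 to 0 when 1 library was left out, and 2 over the joined libraries. The 2 calls over the joined libraries became 7 with DESeq2, 1 with edgeR (an alternative chosen after seeing the data), 0 with the block, and 1 to 1 when 1 library was left out. None of the calls in adult libraries was one of the 8 genes. In adults, estimates that changed sign were EMILIN3 and ADGRD1 of the first table, at -0.47 and 0.0042 over the joined libraries, and FIBIN of the second, at -0.28. PNPLA1 in the second table was -0.084 with a pseudocount of 5, -0.36 with DESeq2, -0.37 with edgeR, -1.06 with the block and -0.62 over the joined libraries. EMILIN3 in the second table was 0.18 with DESeq2 and 0.16 with edgeR, and ADGRD1 was -0.092 and -0.10 there and -0.14 with either tool over the joined libraries. Leaving out 1 library gave these ranges where the sign changed: CBLN2 -1.28 to 0.25 (first table) and -0.77 to 0.25 (joined); PNPLA1 -0.96 to 0.71 (first) and -0.93 to 0.68 (second); CDH19 -1.46 to 1.03 (first) and -2.23 to 0.11 (second); FIBIN -0.72 to 0.29 (first), -0.16 to 0.66 (second) and -0.56 to 0.11 (joined). EMILIN3 ran from -0.055 to 1.07 (first), -0.78 to 0.95 (second) and -0.95 to 0.27 (joined), and ADGRD1 from -0.58 to 0.39 (first), -0.32 to 0.74 (second) and -0.28 to 0.46 (joined). The cause was not tested. Precision is limited by the number of ovaries, 3 fetal and 4 adult a group. Counts of 2 to 6 reads also limit it for SPATA46 and PADI1 in control fetuses. The same holds for PNPLA1 in some adult libraries and for PLCXD3 in adult control 7.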
